A study of Mus musculus with 6 samples.

Results

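Serpins are a family of protease inhibitors, and 62 serpin genes (63 probe sets) were measured among the 24647 genes with a symbol and the 34365 probe sets of 6 Affymetrix mouse arrays. A gene was counted as a serpin when its symbol began with Serpin, and of several probe sets for a gene the one with the highest mean was kept. The family was divided by the letter of the symbol into 24 genes of clade A, 27 of clade B and 11 of the other clades (C to I). The tissue was nodular metaplasia, taken whole, from the squamo-columnar junction (SCJ), the border of the squamous forestomach and the glandular stomach. All 6 samples came from mice labelled C57/BL6 that carried the *L2-IL-1β* transgene, a human IL-1β gene under a viral promoter (Epstein-Barr virus L2) active in the squamous lining of the upper digestive tract, and that had been given deoxycholic acid for 12 months. Samples 52540, 52541 and 52542, the *K14-Cdx2::L2-IL-1β* group, also carried *Cdx2*, an intestinal transcription factor, under the keratin 14 promoter of basal squamous cells. Samples 52543, 52544 and 52545, the *L2-IL-1β* group, did not, and values are given below in this order, one group against the other. The study calls them biological replicates, but whether the nodules of a sample came from 1 mouse or a pool is not stated. In nodules taken whole, fewer cells of a type and less RNA per cell cannot be told apart.

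Most serpins act as suicide substrates. The target protease cuts an exposed loop of the serpin and stays covalently bound to it, and the serpin changes its own fold so that both are lost. Clade A genes, such as the α1-antitrypsin genes of the *Serpina1* group, encode mostly secreted proteins that the liver releases into plasma, and in the mouse the *Serpina1* and *Serpina3* groups were expanded by duplication. Clade B proteins mostly stay inside cells, where they restrain leaked or delivered proteases such as cathepsins and granzymes. The mouse clade B genes lie in a cluster on chromosome 1, several members of which are typical of squamous epithelium, and in a cluster on chromosome 13 that holds the *Serpinb1*, *Serpinb6* and *Serpinb9* groups. A few serpins inhibit no protease, for example Serpinh1, a chaperone of collagen.

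The genes on which the results turn most were 4 near copies on chromosome 1, *Serpinb3a* to *Serpinb3d*, and 3 clade A genes of chromosome 12. The mouse *Serpinb3* genes are related to the human squamous cell carcinoma antigens, which inhibit cathepsins and serine proteases. Their promoters are shown because the 4 genes differed in how far they moved between genotypes. The sequences below are the 250 bases before the transcription start, from RefSeq (GRCm38.p6), written 5′ to 3′ on the strand of the gene, with matches to TTTATG or TTTATT, AT-rich cores that Cdx proteins bind, on either strand in capitals. The 4 *Serpinb3* windows lie on the minus strand, at chr1:107052304-107052553 for *Serpinb3a*, chr1:107161115-107161364 for *Serpinb3b*, chr1:107278372-107278621 for *Serpinb3c* and chr1:107083481-107083730 for *Serpinb3d*.
Serpinb3a: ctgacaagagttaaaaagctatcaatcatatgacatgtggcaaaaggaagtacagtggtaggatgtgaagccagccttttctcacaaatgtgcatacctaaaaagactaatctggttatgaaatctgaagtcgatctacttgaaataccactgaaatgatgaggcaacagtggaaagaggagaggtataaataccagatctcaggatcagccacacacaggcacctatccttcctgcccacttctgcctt
Serpinb3b: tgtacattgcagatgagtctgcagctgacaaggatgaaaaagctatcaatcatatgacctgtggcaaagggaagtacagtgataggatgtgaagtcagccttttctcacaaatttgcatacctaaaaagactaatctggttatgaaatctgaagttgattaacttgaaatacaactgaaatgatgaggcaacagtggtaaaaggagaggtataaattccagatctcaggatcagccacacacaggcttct
Serpinb3c: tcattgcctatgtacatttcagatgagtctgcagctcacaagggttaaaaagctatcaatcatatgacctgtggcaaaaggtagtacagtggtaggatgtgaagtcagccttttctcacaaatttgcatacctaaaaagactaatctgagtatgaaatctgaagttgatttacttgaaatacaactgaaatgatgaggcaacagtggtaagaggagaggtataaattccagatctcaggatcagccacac
Serpinb3d: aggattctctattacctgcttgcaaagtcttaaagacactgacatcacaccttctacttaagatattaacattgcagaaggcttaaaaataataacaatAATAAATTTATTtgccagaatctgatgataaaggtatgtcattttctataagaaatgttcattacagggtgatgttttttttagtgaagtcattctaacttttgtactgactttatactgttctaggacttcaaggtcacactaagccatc
The windows of *Serpinb3a*, *Serpinb3b* and *Serpinb3c* were 92.5% to 95.4% identical over the aligned columns, whereas that of *Serpinb3d* was 54.2% to 54.8% identical to the other 3. Only the *Serpinb3d* window of these 4 held one of the searched cores, TTTATT, on the minus strand from 151 bases and on the plus strand from 145 bases before the start, so that both matches lie side by side.

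From clade A, *Serpina3b* and *Serpina3c* are shown as neighbours that differed in opposite directions, and *Serpina12* as the clade A gene with the largest difference. Their windows lie at chr12:104127746-104127995 (plus strand), chr12:104153873-104154122 (minus strand) and chr12:104044444-104044693 (minus strand).
Serpina3b: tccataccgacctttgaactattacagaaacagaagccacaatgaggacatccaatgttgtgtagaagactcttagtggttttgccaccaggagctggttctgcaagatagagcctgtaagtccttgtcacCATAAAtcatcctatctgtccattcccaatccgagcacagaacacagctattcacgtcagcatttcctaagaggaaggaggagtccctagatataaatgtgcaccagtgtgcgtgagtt
Serpina3c: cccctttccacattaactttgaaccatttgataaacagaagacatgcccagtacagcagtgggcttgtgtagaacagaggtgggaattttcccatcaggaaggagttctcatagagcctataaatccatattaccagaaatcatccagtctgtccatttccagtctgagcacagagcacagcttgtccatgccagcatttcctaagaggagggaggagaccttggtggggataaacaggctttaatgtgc
Serpina12: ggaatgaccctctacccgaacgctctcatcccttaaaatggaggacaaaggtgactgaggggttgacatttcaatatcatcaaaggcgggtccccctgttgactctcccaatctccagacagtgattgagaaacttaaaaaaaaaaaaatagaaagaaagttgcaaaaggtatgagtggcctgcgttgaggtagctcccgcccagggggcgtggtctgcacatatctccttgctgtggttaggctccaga
The *Serpina3b* and *Serpina3c* windows were 70.7% identical, and the *Serpina3b* window held TTTATG on the minus strand from 119 bases before the start. Windows that also took in 50 bases after the start were found for 51 of the 62 serpins. TTTATG was present in 9 of the 51 (17.6%) against 13.6% of the 27025 genes with a window, a set that differs from the genes on the arrays, and 5 of these were the close copies *Serpina1a* to *Serpina1e*. TTTATT was present in 14 of the 51 (27.5%) against 22.0% of the genes with a window, and 7 of the 14 windows of the chromosome 13 cluster held it. Most of these 7 belonged to 1 duplicated group, *Serpinb9*, *Serpinb9d*, *Serpinb9e*, *Serpinb9f* and *Serpinb9g*, beside *Serpinb1c* and *Serpinb6b*. The NF-κB core motif was present in 2 of the 51 (3.92%), *Serpina3i* and *Serpina3n*, against 1.89% of the genes with a window. A match describes the letters and not a bound site.

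The values were log2 intensities as the authors deposited them, and *K14-Cdx2::L2-IL-1β* was compared with *L2-IL-1β* by limma with p-values adjusted over all probe sets (Benjamini-Hochberg). The threshold for a call was an adjusted p under 0.10. Array medians ran from 6.62 to 6.65, and the transgene's gene, *Cdx2*, ran from 9.04 to 9.83 with the transgene and from 6.74 to 6.87 without it. Sample 52542 stood apart, since its median over 10 pancreatic acinar genes was 3.92 log2 units above the *L2-IL-1β* mean, against 0.00 and 0.10 in 52540 and 52541. Neutrophil markers were lower in the *K14-Cdx2::L2-IL-1β* samples (5 of 10 called, median difference -0.86), as were squamous keratinocyte markers (3 of 12 called, *Krt14*, *Krt6a* and *Sfn*, median -0.24). For *Serpina* and *Serpinb* groups of near-identical copies, part of a probe set's signal may come from another copy.

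No serpin passed the test between genotypes. limma called 0 of 62 serpins, where it called 2.14% of all genes, and at an unadjusted p under 0.05 there were 8 of 62 (12.9%) against 15.1% of all genes. Fewer serpins than genes in general had a mean above the median of all probe sets (40.3% against 59.9%). Among those above it, 6 of 25 serpins (24.0%) had an unadjusted p under 0.05 by limma, against 20.5% of all genes. An equal-variance test also called 0 of 62 and 0 of all genes, while SAM, the test named in the methods, called 3 of 62 (*Serpina3b*, *Serpina3c* and *Serpinb1a*) against 5.61% of all genes. For 54 of the 62 serpins the 95% interval of the difference lay within 2-fold in both directions, as it did for 23226 of all 24647 genes. Of the 54, 34 were among the 37 serpins whose mean was not above the median of all probe sets. Differences of at least 2-fold were measured for 3 serpins, *Serpinb3d* and *Serpinb3b* lower and *Serpina12* higher in *K14-Cdx2::L2-IL-1β*, against 1.14% of all genes. The samples of both genotypes did not overlap for 9 of 62 serpins (14.5%) against 21.2% of all genes. Of these 9, 3 were higher and 6 lower in *K14-Cdx2::L2-IL-1β*, against 9.21% and 12.0% of all genes. The exact two-sided permutation test of 3 samples against 3 cannot give a p under 0.10, which was its value for each of those 9 genes.

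**Figure D1:**
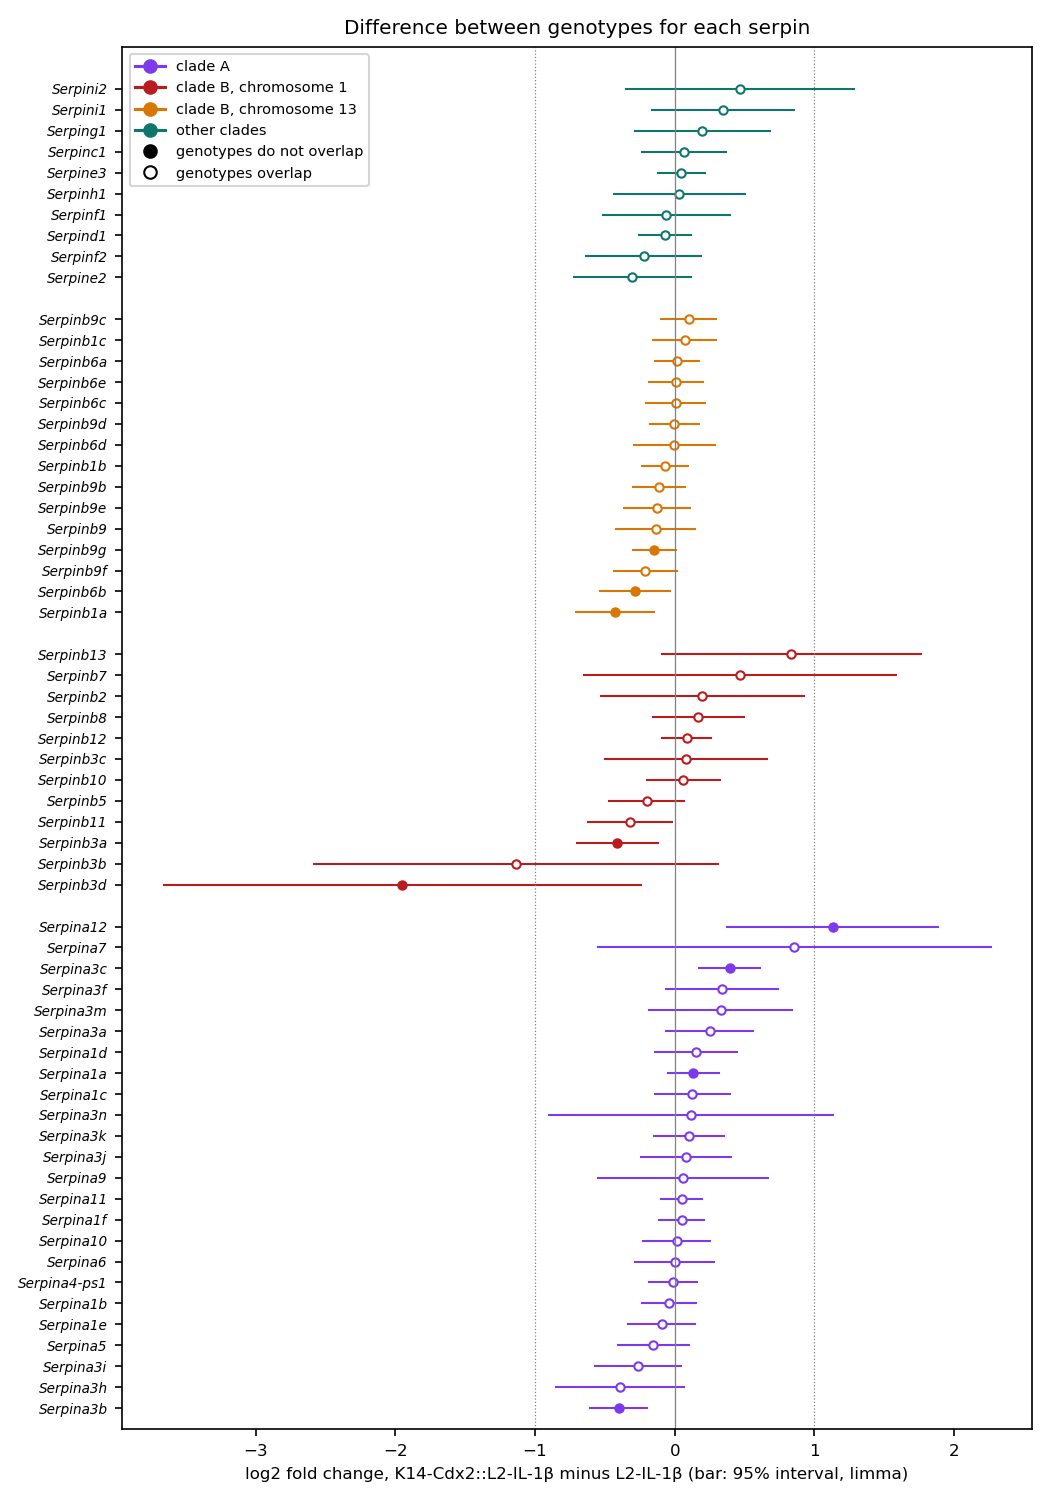
Log2 fold change of the serpins, *K14-Cdx2::L2-IL-1β* minus *L2-IL-1β* (3 samples each), with its 95% limma interval as a bar, grouped by clade and cluster, and with dotted lines at 2-fold. Filled points mark the 9 serpins whose genotypes do not overlap, and the widest bars belong to *Serpinb3d* and *Serpinb3b* (-1.95 and -1.14).

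Few clade A genes, and most clade B genes of chromosome 1, gave a signal in the upper part of the array's range. The mean lay above the median of all probe sets (6.64) for 3 of 24 clade A genes (12.5%), *Serpina3n*, *Serpina12* and *Serpina9*, for 16 of 27 clade B genes (59.3%) and for 6 of the 11 others, against 59.9% of all genes. Of the 12 clade B genes on chromosome 1, 11 lay above it, and of the 15 on chromosome 13, 5 did. The median difference was 0.07 in clade A (17 of 24 higher), -0.00 in clade B (12 of 27 higher) and 0.03 in the other clades (6 of 11 higher), beside -0.01 over all genes. The genotypes did not overlap for 4 of 24 clade A genes, 3 of them higher, for 5 of 27 clade B genes, all 5 lower, and for 0 of the 11 others, which is 16.7%, 18.5% and 0% beside the 21.2% of all genes (9.21% higher and 12.0% lower). Whether the clades differed was not tested. The median SD within a genotype was 0.28 in the chromosome 1 cluster, 0.29 in the other clades, 0.11 in the chromosome 13 cluster and 0.16 in clade A, beside 0.12 over all genes.

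**Figure D2:**
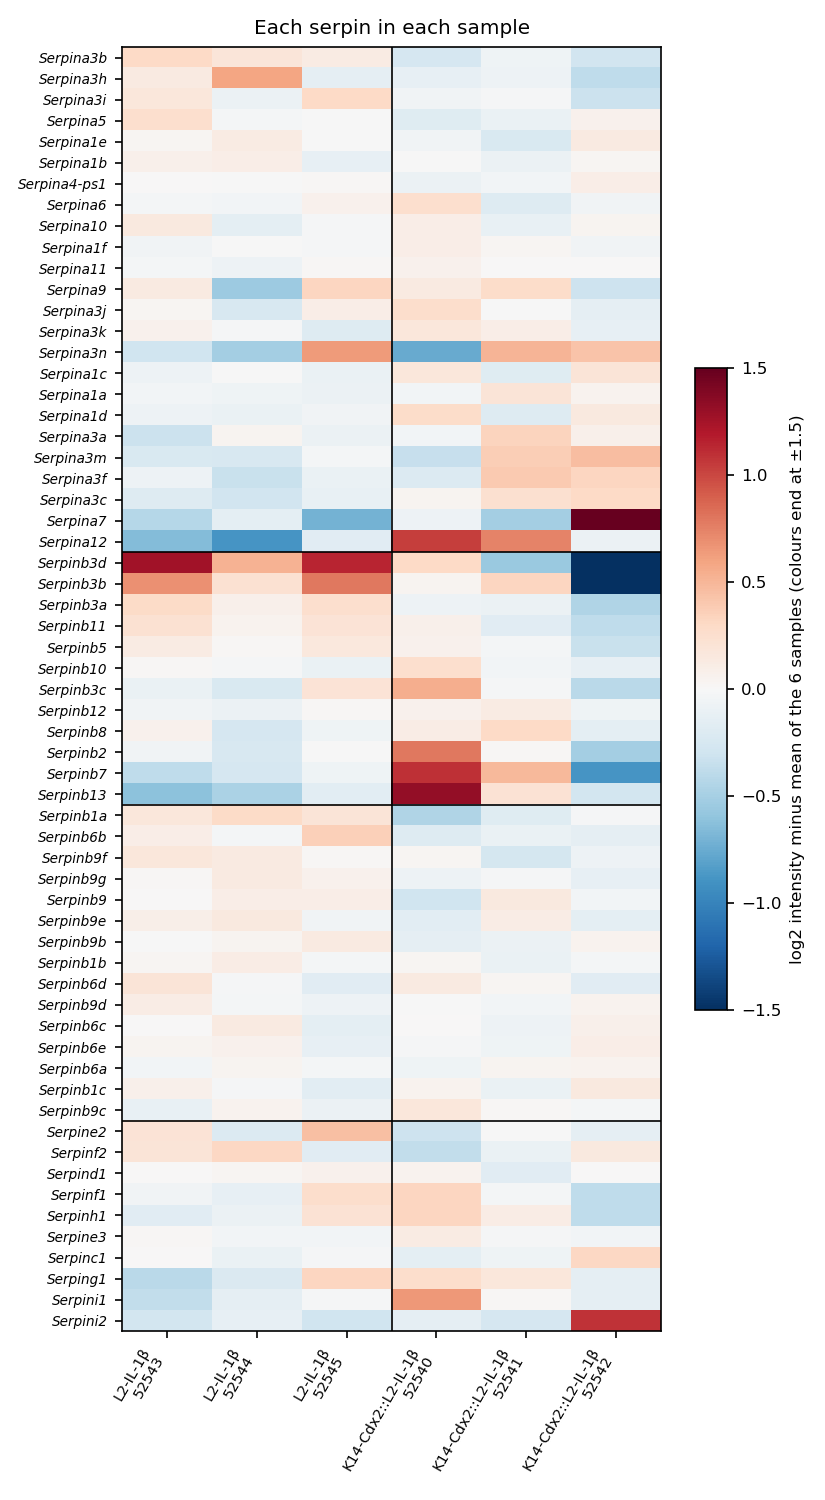
Log2 intensity of the serpins (rows) in each sample (columns) minus its mean over the 6 samples, ordered by clade and cluster and within them by the difference between genotypes. The deepest colours belong to *Serpinb3d*, *Serpinb3b* and *Serpina7* in sample 52542, and most rows of the chromosome 13 cluster stay pale.

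The *Serpinb3* genes were lowest in sample 52542, all 4 of them. *Serpinb3d* read 8.89, 8.04 and 5.92 in samples 52540, 52541 and 52542, and 9.86, 9.11 and 9.73 in samples 52543, 52544 and 52545. The genotypes did not overlap, and sample 52542 lay furthest from the rest. The difference was -1.95 ± 0.71 (SE, n = 3 and 3), a 3.86-fold lower signal, with an adjusted p of 0.306 by limma, and it was -1.10 (adjusted p = 0.223) without sample 52542.

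*Serpinb3b* read 9.83, 10.12 and 7.73 against 10.48, 10.02 and 10.59. Apart from sample 52542, the genotypes overlapped. The difference of -1.14 ± 0.60 (adjusted p = 0.478, limma) became -0.39 without that sample. *Serpinb3a* was the steadiest of the 4, at 12.99, 12.99 and 12.62 against 13.36, 13.15 and 13.32. Every *K14-Cdx2::L2-IL-1β* sample lay below every *L2-IL-1β* sample, and the difference was -0.41 ± 0.12 (adjusted p = 0.214, limma). *Serpinb3c* read 11.35, 10.79 and 10.41 against 10.71, 10.58 and 11.01. It overlapped between genotypes (0.08 ± 0.24), and its interval of -0.50 to 0.66 lay within 2-fold.

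Across the whole chromosome 1 cluster, 9 of 12 genes had their lowest value of the 6 samples in 52542, against 5422 of all 24647 genes, while 5 of 12 were highest in sample 52540, against 5031 of all genes. The cluster's median deviation from the *L2-IL-1β* mean was 0.15 in sample 52540, 0.00 in 52541 and -0.42 in 52542. The 12 squamous keratinocyte markers had median deviations of -0.22, -0.26 and -0.30 in the same order, and 4 of 12 were lowest in 52542. Among them, *Dsg3* read 12.54, 12.24 and 11.89, and *Dsc3* 12.20, 11.76 and 11.47, so that both were lowest in 52542. In contrast, *Krt6a* and *Krt15* had the highest value of the *K14-Cdx2::L2-IL-1β* group there (12.51 and 10.61). So did, by a small margin, *Krt14*, *Krt5* and *Sfn* (12.78, 13.31 and 9.3). The summed level of those markers was 15.94 to 16.06 (log2) in *K14-Cdx2::L2-IL-1β* and 16.31 to 16.36 in *L2-IL-1β*. Their part in the serpin values, and that of the acinar signal in 52542, was not tested.

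**Figure D3:**
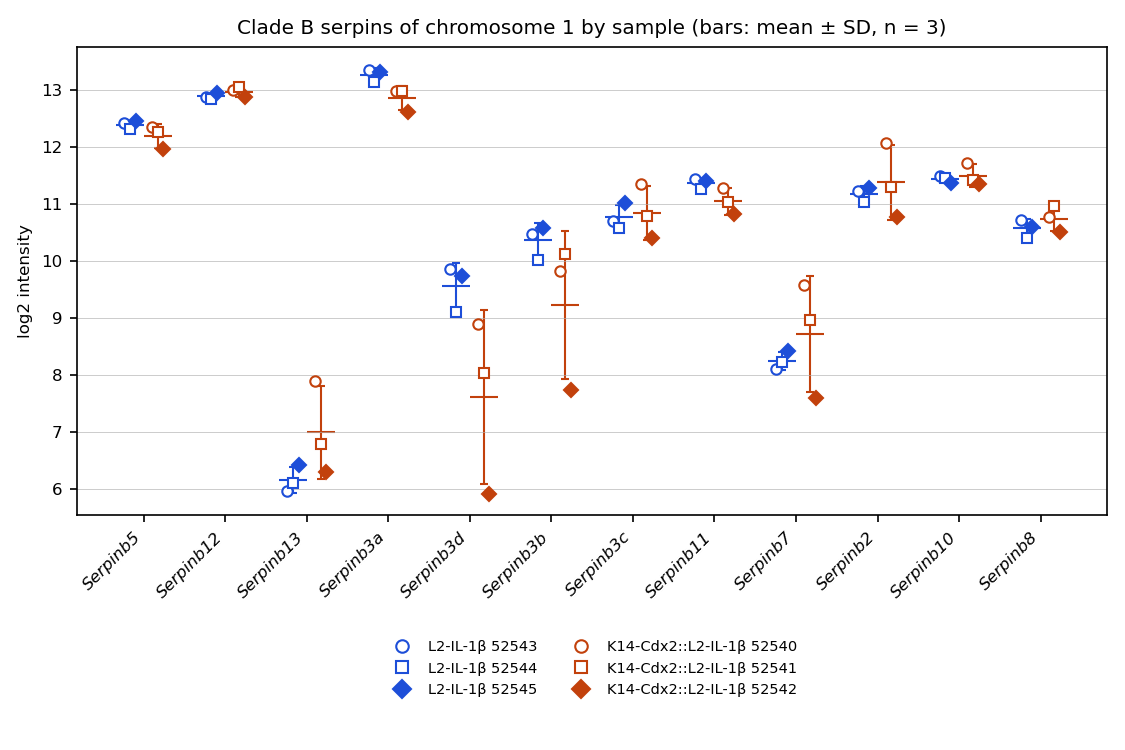
Log2 intensity of the 12 clade B serpins of chromosome 1 in each sample, in their order along the chromosome, with mean ± SD per genotype (n = 3). Sample 52542 (filled orange diamonds) is the lowest of the 6 for 9 of the 12 genes, down to 5.92 for *Serpinb3d* and 7.59 for *Serpinb7*.

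Several other genes of this cluster spread widely among the *K14-Cdx2::L2-IL-1β* samples and little among the *L2-IL-1β* samples. *Serpinb13*, which encodes the cathepsin inhibitor headpin, read 7.89, 6.79 and 6.30 against 5.96, 6.10 and 6.42. Samples 52540 and 52541 were the highest of the 6, and the difference was 0.84 ± 0.39 (adjusted p = 0.413, limma). *Serpinb7*, whose human counterpart is mutated in an inherited thickening of the palms and soles, read 9.58, 8.97 and 7.59 against 8.10, 8.23 and 8.42. It was thus highest in 52540 and lowest in 52542, and its difference was 0.46 ± 0.47 with all samples and 1.02 (adjusted p = 0.104) without 52542. *Serpinb2*, the intracellular urokinase inhibitor PAI-2, showed the same order at 12.08, 11.30 and 10.78 against 11.24, 11.04 and 11.28 (0.20 ± 0.30).

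The remaining genes of the cluster varied less. *Serpinb11* read 11.29, 11.04 and 10.83 against 11.43, 11.26 and 11.41, with a single overlap between genotypes, and its difference was -0.32 ± 0.13 (adjusted p = 0.338, limma). Without sample 52540 it was called (-0.44, adjusted p = 0.0916, limma), in a fit that called 6.15% of all genes. *Serpinb5*, or maspin, an epithelial serpin without known protease inhibition, read 12.36, 12.27 and 11.97 against 12.42, 12.32 and 12.45. Its genotypes overlapped and its interval was -0.47 to 0.07. *Serpinb12*, a trypsin inhibitor of epithelia, was almost level, with 12.98 ± 0.09 (SD, n = 3) against 12.89 ± 0.05 and an interval of -0.09 to 0.26. *Serpinb8*, whose human counterpart inhibits furin, and *Serpinb10* also overlapped between genotypes, with differences of 0.17 ± 0.14 and 0.06 ± 0.11 (SE).

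On chromosome 13 the differences were small, with a median of -0.07. For each of the 15 genes the interval lay within 2-fold, as it did for 23226 of all 24647 genes. Of the 15, 10 were lower, against 12694 of all 24647 genes. Among the 10, *Serpinb6d* and *Serpinb9d* differed by only -0.003 and changed sign with a sample left out. *Serpinb1a*, an inhibitor of neutrophil elastase, cathepsin G and proteinase 3, lies at chr13:32933962-32943054 (NCBIM37). It read 9.60, 9.88 and 10.04 in *K14-Cdx2::L2-IL-1β* and 10.22, 10.34 and 10.25 in *L2-IL-1β*. The groups did not overlap, and the *K14-Cdx2::L2-IL-1β* samples spread more (SD 0.22 against 0.06). The difference was -0.43 ± 0.12, a 1.35-fold lower signal with an adjusted p of 0.187 by limma, and SAM called it.

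Markers of several cell types were also lower. The summed level of the 10 neutrophil markers was 12.77 to 13.05 (log2) in *K14-Cdx2::L2-IL-1β* and 14.04 to 14.27 in *L2-IL-1β*. *S100a8* had the highest mean of the 10 in *L2-IL-1β* (12.93), and the study describes it and *S100a9* as also expressed by squamous epithelium. Of the 10, 8 were lower without overlap, while *Camp* and *Ngp* were level (0.005 and 0.003). The summed level was 15.94 to 16.06 against 16.31 to 16.36 for the 12 squamous keratinocyte markers. For the 10 T and NK cell markers it was 10.34 to 11.29 against 11.62 to 11.86. The part of these cell types in the *Serpinb1a* value was not tested. Within *K14-Cdx2::L2-IL-1β*, the summed level of the neutrophil markers was 12.81, 13.05 and 12.77 in samples 52540, 52541 and 52542. In the same order, 2, 2 and 4 of the 10 markers had their lowest value of the 6 samples there. Of the 3 targets named, *Prtn3* (proteinase 3) differed by -0.12 without overlap but was not called (adjusted p = 0.501, limma), and *Elane* and *Ctsg* gave signals below the median of all probe sets.

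*Serpinb6b*, a granzyme A inhibitor in mouse, read 7.26, 7.35 and 7.32 against 7.55, 7.43 and 7.81. The genotypes did not overlap (-0.29 ± 0.11, adjusted p = 0.312, limma). *Serpinb9*, which protects cells from granzyme B, read 8.54, 8.98 and 8.79 against 8.84, 8.94 and 8.94. It overlapped, with a difference of -0.14 ± 0.12, and it alone of the 7 *Serpinb9* genes lay above the median of all probe sets. Of the 7, 6 were lower, against 12694 of all 24647 genes. Only 1, *Serpinb9g*, did not overlap (14.3% against 21.2% of all genes). It gave a low signal, 3.92 ± 0.05 against 4.06 ± 0.05 (SD). *Serpinb9f* read 6.03, 5.74 and 5.93 against 6.17, 6.15 and 6.02, with a single overlap and a difference of -0.21 ± 0.09 (adjusted p = 0.394, limma). *Gzmb*, the gene of granzyme B, was lower in *K14-Cdx2::L2-IL-1β* (-1.10 ± 0.16, adjusted p = 0.052, limma), at 5.04, 5.14 and 5.42 against 6.36, 6.0 and 6.53. It was the only one of 9 granzyme genes called. Of 10 T and NK cell markers 0 were called. Without overlap, 4 were lower and 1 higher, against 12.0% and 9.21% of all genes. Among these, *Cd3e* was lower (-1.29, adjusted p = 0.103, limma) and *Cd8a* higher (0.30, adjusted p = 0.315, limma). The summed level of the 10 markers was 10.34 to 11.29 (log2) in *K14-Cdx2::L2-IL-1β* and 11.62 to 11.86 in *L2-IL-1β*. Their part in the *Gzmb* and *Serpinb9* values was not tested. *Serpinb6a*, whose human counterpart inhibits cathepsin G, differed by 0.02 ± 0.07.

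In clade A, *Serpina12* had the largest difference. It encodes vaspin, a serpin of fat and skin that inhibits kallikrein 7. It read 9.97, 9.68 and 8.84 against 8.28, 8.05 and 8.77. The genotypes did not overlap, but samples 52542 and 52545 lay close to each other. The difference was 1.13 ± 0.32, a 2.19-fold higher signal, with an adjusted p of 0.196 by limma and an interval of 0.38 to 1.89. Without sample 52542 it was 1.46 and was called (adjusted p = 0.0619), the only serpin called in that fit, which called 2.04% of all genes. Of 6 adipocyte markers, *Fabp4* was called higher and *Lep* lower, while *Adipoq*, *Plin1*, *Cidec* and *Retn* overlapped between genotypes. Their summed level was 13.09 to 13.14 (log2) in *K14-Cdx2::L2-IL-1β* and 12.23 to 12.57 in *L2-IL-1β*, most of it from *Fabp4* (12.97 ± 0.04 against 12.14 ± 0.24, SD). *Adipoq* gave a signal below the median of all probe sets in both groups (5.6 ± 0.31 against 5.43 ± 0.04, SD). The part of fat in the *Serpina12* values was not tested.

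The *Serpina3* group, which descends from an α1-antichymotrypsin-like gene, held 10 measured members, of which *Serpina3n* alone lay above the median of all probe sets. *Serpina3b* (chr12:105366206-105377755, NCBIM37) had the smallest p of all serpins, and its samples read 5.05, 5.23 and 5.02 against 5.60, 5.48 and 5.42. *Serpina3c* (chr12:105384592-105392080), its neighbour, read 5.46, 5.67 and 5.73 against 5.23, 5.14 and 5.31. Neither overlapped between genotypes, and they went in opposite directions, with differences of -0.40 ± 0.09 (adjusted p = 0.115, limma) and 0.39 ± 0.09 (adjusted p = 0.140). Both signals lay below the median of all probe sets. *Serpina3h*, also below it, read 5.77, 5.81 and 5.51 against 6.02, 6.49 and 5.75, and its genotypes overlapped (-0.39 ± 0.19, adjusted p = 0.439).

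*Serpina3f* and *Serpina3m* were low in sample 52540 and higher in 52541 and 52542. They read 6.07, 6.65 and 6.59 against 6.19, 5.94 and 6.16 for *Serpina3f*, and 5.41, 6.12 and 6.22 against 5.53, 5.51 and 5.73 for *Serpina3m*. Without sample 52540, *Serpina3c*, *Serpina3f* and *Serpina3m* were called as higher (adjusted p = 0.0529, 0.0698 and 0.0501, limma), in a fit that called 6.15% of all genes. *Serpina3n*, an acute phase serpin that inhibits granzyme B in mouse, had the widest spread within both genotypes of any serpin above the median in clade A, at 10.61, 11.88 and 11.80 against 11.07, 10.86 and 12.01. The groups overlapped fully, and the interval of -0.90 to 1.14 reached past 2-fold on the higher side. Sample 52540 also had the lowest *Serpina3n*.

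The α1-antitrypsin genes and the other plasma serpins of clade A were near the lower end of the signal range. None of the 6 *Serpina1* genes lay above the median of all probe sets, and their differences ran from -0.09 to 0.15. *Serpina1a* read 5.87, 6.10 and 5.96 against 5.86, 5.84 and 5.82, a difference of 0.13 ± 0.08 without overlap. *Serpina1e* differed by -0.09 ± 0.10 and overlapped. *Serpina7*, which encodes the thyroxine carrier of plasma, stood out in 1 sample. It read 5.61, 5.19 and 7.56 against 5.27, 5.55 and 4.98. Its difference was 0.86 with all samples and 0.13 without 52542. Of 10 hepatocyte markers 0 were called, but 6 had their highest value in 52542, among them *Alb* (9.11) and *Ttr* (12.04). *Fga* and *Fgb* were highest in 52540 (4.84 and 5.5), *Hpx* in 52541 (6.54) and *F2* in 52543 (6.51). The summed level of the 10 markers was 13.19 (log2) in 52542, 12.03 in 52540 and 12.40 in 52541, against 11.03 to 12.33 in *L2-IL-1β*. The part of these markers in the *Serpina7* value, and that of the acinar signal in 52542, was not tested. *Serpina9*, or centerin, a serpin of germinal centre B cells, overlapped between genotypes (8.58 ± 0.31 against 8.51 ± 0.46, SD).

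**Figure D4:**
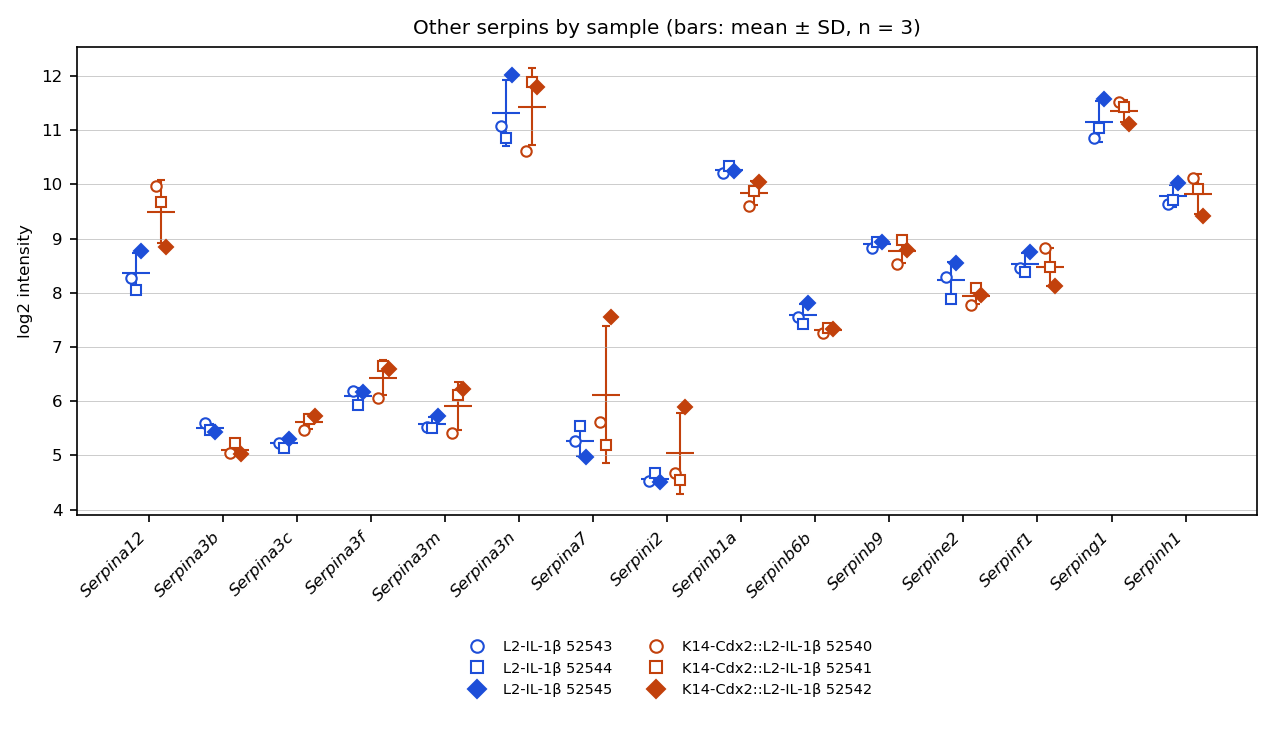
Log2 intensity by sample of serpins outside the chromosome 1 cluster, with mean ± SD per genotype (n = 3). *Serpina7* and *Serpini2* are high in sample 52542 alone (7.56 and 5.89), *Serpina12* is higher and *Serpinb1a* lower in all *K14-Cdx2::L2-IL-1β* samples, and *Serpina3n* spreads from 10.61 to 12.01.

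The other clades hold serpins of clotting, fibrinolysis, complement and matrix, and all 11 genes overlapped between genotypes, where 21.2% of all genes did not. *Serpine2*, or protease nexin 1, which inhibits thrombin and plasminogen activators, read 7.78, 8.08 and 7.96 against 8.29, 7.89 and 8.55. It was lower on average, by -0.30 ± 0.17, but the genotypes overlapped. Its target proteases *Plau* and *Plat* were lower without overlap (-0.43 and -0.44), although neither was called (adjusted p = 0.260 and 0.326, limma).

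*Serping1*, the complement C1 inhibitor, read 11.52, 11.42 and 11.12 against 10.85, 11.04 and 11.58. The samples interleaved, with a difference of 0.20 ± 0.20, and 0 of the 5 C1 and MASP protease genes were called. *Serpinf1*, which encodes the antiangiogenic factor PEDF, and *Serpinh1*, the collagen chaperone, differed by -0.06 ± 0.19 and 0.03 ± 0.19, both with intervals within 2-fold. *Serpini2*, or pancpin, a serpin of the pancreas, read 4.67, 4.55 and 5.89 against 4.54, 4.68 and 4.5. Only sample 52542 was above the rest, and without it the difference went from 0.47 to 0.04. That sample's summed acinar markers were at 13.99 (log2), against 10.15 to 10.60 in *L2-IL-1β*, and their part in the *Serpini2* value was not tested. *Serpinc1* (antithrombin), *Serpind1* (heparin cofactor II) and *Serpinf2* (α2-antiplasmin) lay near or below the median of all probe sets, with differences of 0.07, -0.07 and -0.22.

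Serpins were also set beside the proteases they act on and beside other inhibitor families. Of 50 protease genes in 7 lists, 2 were called, both lower, *Gzmb* and the cathepsin C gene *Ctsc* (-0.60 ± 0.08, adjusted p = 0.043, limma). *Ctsc* encodes the enzyme that activates granzymes and neutrophil serine proteases, and it was 1 of 10 papain-like cathepsin genes called. The lists of plasminogen activation, neutrophil serine, mast cell, coagulation and complement proteases held 0 called genes, with medians of -0.27, -0.08, 0.35, -0.05 and -0.07. Of 55 genes in 6 other inhibitor lists, 7 were called, all lower, against 0 of 62 serpins and 1.44% of all genes called lower. These were 5 of 17 cystatins and stefins, which inhibit cysteine cathepsins, and 2 of 12 whey acidic protein (WAP) type genes. The 5 were *Stfa3*, *BC100530*, *Stfa1*, *Cst7* and *Cstb*, and part of the signal of a stefin A gene may come from another copy. In these 2 lists 70.6% and 66.7% of genes lay above the median of all probe sets, against 40.3% of serpins. *Stfa3*, a stefin A gene, read 8.12, 7.77 and 7.45 against 9.86, 9.53 and 9.94 (-2.0 ± 0.19, adjusted p = 0.021). The summed levels of neutrophil, squamous keratinocyte and T and NK cell markers, given with *Serpinb1a*, were also lower. The part of these cell types in the inhibitor values was not tested. The Kazal, Kunitz, α2-macroglobulin and metalloproteinase inhibitor lists held 0 called genes. Whether the inhibitor families differed from each other was not tested.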

How the data were processed

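Total RNA of SCJ nodules from 3 *K14-Cdx2::L2-IL-1β* and 3 *L2-IL-1β* samples was hybridised to Affymetrix mouse gene arrays, for which the methods and the design text name different versions. The authors deposited log2 intensities per probe set, already normalized between arrays; how they were summarised, background-corrected and computed is not stated. Of the tables, 2 held these values and were identical. A further 7 columns hold the authors' own comparison (fold changes, ratios, SAM scores and p- and q-values) and were not used. The build in the submitters' notes is mm8, and positions in the annotation name NCBIM37.

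All 34365 probe sets were fitted in R 4.3.3 by limma 3.58.1 (eBayes after lmFit, genotype only, 2.59 prior degrees of freedom), with Benjamini-Hochberg adjustment over all of them. The 24647 genes were each represented by the probe set with the highest mean. The p-values measure the spread between these samples only, and precision is limited by the number of arrays. The scripts were tested on simulated data. The alternatives were median centring, quantile normalization, leaving out dim probe sets, averaging a gene's probe sets, eBayes with trend and robust, SAM (all 20 relabellings), an equal-variance test, other thresholds, and leaving out each sample in turn.

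Serpins were named with values by rule if they were the 12 with the smallest p, the 10 with the largest difference, the 5 with the highest mean in clade A, in clade B and in the other clades, and members of known role; of each protease or inhibitor list, up to 3 genes with the smallest p could be named. Others (among them *Serpina3m*, *Serpinb6a*, *Serpinb8*, *Serpinc1*, *Serpind1* and *Serpinf2*) were picked with their values in view. The serpins, gene lists and tests were chosen with earlier results of these data known. *Serpina3g* was not analysed here, and 1 further serpin, which stays in the counts, is not reported here by name. Summed levels are log2 of the sum of linear intensities over a list. Marker lists of 12 cell types were counted: none of the T and NK cell, macrophage, fibroblast, endothelial, smooth muscle and gastric gland markers was called (median differences -0.22, -0.015, 0.07, -0.17, 0.52 and 0.80), all 6 smooth muscle markers were higher and 4 of 8 gastric gland markers were at least 2-fold higher without a call, and 2 of 8 intestinal markers were called higher (*Cdx2* and *Cdhr5*). Among response genes, 0 of 12 interferon-stimulated and 1 of 10 acute phase genes (*Lcn2*, lower) were called. Promoter windows came from RefSeq (GRCm38.p6). Python 3.11.15 with matplotlib 3.10.9, pandas 2.3.3, scipy 1.17.1 and numpy 2.4.6 served for tables and figures.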

Additional observations from a re-analysis of the deposited data

How the results depend on the processing

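The count of 0 called serpins was the same with median centring, quantile normalization, dim probe sets left out (25 serpins remained), averaging of a gene's probe sets, and eBayes with trend and robust. The stricter thresholds could only give 0 as well, and the equal-variance test called 0 of all genes, so neither bears on the count. SAM called 3 serpins, 2 of clade A and 1 of clade B, and 5.61% of all genes. Leaving out each sample in turn gave 0 to 4 called serpins (0 to 3 in clade A, 0 to 1 in clade B and 0 in the other clades). The 4 were called without sample 52540, and 1 without 52542, in fits that called 6.15% and 2.04% of all genes. The clade A median difference of 0.071 was 0.116 with dim probe sets left out and 0.013 to 0.103 with single samples left out. The clade B median of -0.003 ran from -0.075 to 0.000 over the left-out samples. The median of the other clades, 0.034, was -0.141 with dim probe sets left out and -0.088 to 0.054 with single samples left out. The 31 serpins that the naming rule gave had 392 values under the alternatives other than the thresholds. Of these values, 14 changed sign, each with a single sample left out and none of them called. They belonged to 6 genes, whose differences ran from -0.11 to 0.53 for *Serpina3n*, -0.20 to 0.24 for *Serpina9*, -0.05 to 0.14 for *Serpinb10*, -0.15 to 0.50 for *Serpinb2*, -0.24 to 0.11 for *Serpinf1* and -0.12 to 0.23 for *Serpinh1*. Over all 62 serpins, 18 changed sign with a sample left out, none of them differing by more than 0.20, among them *Serpinb3c* (-0.17 to 0.30) and *Serpinc1* (-0.07 to 0.16). The causes were not tested. No paired analysis was possible because each sample carries a number of its own, shared by none in the opposite group. The 3 arrays a genotype limit the precision, and no call of signal over background was used.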
